A study of Oryza sativa with 9 samples.

Results

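The Argonaute (AGO), Dicer-like (DCL) and RNA-dependent RNA polymerase (RDR) genes of rice were followed on 9 leaf arrays. A probe set, the group of short array probes that measures a transcript, was taken when the annotation gave it 1 gene whose name or synonym was AGO, DCL or RDR with a number, or MEL1, PNH1, SHL2 or SHO1. This gave 22 of the 57194 tested probe sets, from 18 genes of the 17905 genes represented by a probe set with 1 listed gene. Among them 13 were Argonaute genes (15 probe sets), 2 Dicer-like genes (3 probe sets) and 3 RDR genes (4 probe sets). AGO7 was also reached by the rule but paired with no probe set, and family members under other names are not analysed here. The arrays measured leaves of 21-day-old unstressed seedlings grown in liquid culture, in 3 groups of 3. RNAi plants carried a hairpin construct of an OsHMGB707 segment behind a ubiquitin promoter. OE plants carried the OsHMGB707 cDNA behind a viral promoter, and WT plants were untransformed Zhonghua11, the japonica cultivar in which both lines were made. Each sample pooled several seedlings, and p-values therefore reflect pool-to-pool spread. The labels do not name the transformed line behind each group, and its 3 pools may trace back to 1 transformed plant. No empty-vector line was among the arrays, and effects of a construct, of transformation and of hygromycin selection cannot be told apart.

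Plants use these proteins to turn double-stranded RNA into silencing signals. Dicer-like enzymes cut the double strand into small RNAs, Argonautes carry the small RNAs to matching transcripts or chromatin, and RDR enzymes copy transcripts into new double strands that feed the same route. A hairpin transcript folds into double-stranded RNA by itself, so an RNAi line loads this machinery with small RNAs of the construct. The comparisons below ask whether the transcripts of the machinery differed in the line that carries a hairpin, in the line that carries a cDNA, and between them.

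OsHMGB707 itself, a high mobility group box gene on chromosome 4, read 10.31, 10.43 and 10.03 on the RNAi arrays, 12.25, 12.28 and 12.37 on the OE arrays, and 12.39, 12.38 and 12.38 on the WT arrays (log2 values). It was 4.38-fold lower in RNAi than in WT (limma adjusted p = 3.85e-06). The probe set was taken as OsHMGB707 because the study listed it as the high mobility group gene of chromosome 4 that fell in RNAi. Its fall is therefore no independent check of the RNAi label, and the reading of the OE label rests on the same choice. OE differed from WT by -0.09 (adjusted p = 0.703), with all 3 OE arrays below every WT array, so this probe set does not back the OE label and "OE" below means the arrays so labelled. A second, dimmer probe set of the gene was not called in any comparison. It stood at -0.44 in RNAi against WT (limma adjusted p = 0.286) and -0.27 in OE against WT (adjusted p = 0.419), with overlapping groups. The paper reported, by quantitative PCR, more OsHMGB707 transcript than in WT in several overexpression lines. Whether the arrays labelled OE came from 1 of those lines is not stated in the labels. Correlations between arrays across probe sets were 0.992 to 0.998 within groups and 0.988 to 0.995 between groups. Of the leaf markers listed, none of 15 probe sets was called in any comparison by limma, and the list averaged 10.70 to 10.78 in RNAi, 10.74 to 10.84 in OE and 10.67 to 10.83 in WT. At an unadjusted p under 0.05 they numbered 2 in RNAi against WT, 1 in OE against WT and 0 in RNAi against OE. Of all probe sets, 12.5%, 16.9% and 21.8% passed in these comparisons. The spread was widest in RNAi, where the median SD over the 22 probe sets was 0.109, against 0.0882 in OE and 0.0570 in WT.

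In the hairpin line the silencing genes stayed close to WT in measured level, with AGO17 as the single call. AGO17 (LOC4328436 on chromosome 2), an Argonaute gene, read 5.45, 5.18 and 5.49 on the RNAi arrays, against 5.99, 5.87 and 6.04 on the WT arrays. Every RNAi array lay below every WT array. AGO17 fell by 0.60 on the log2 scale (SE 0.10, 95% interval -0.82 to -0.37, limma adjusted p = 0.0432), a 1.51-fold lower level. In whole leaves, fewer cells of a type and less RNA per cell cannot be told apart. Its values lay near the array medians (5.89 to 5.94), and detection above background was not assessed.

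The AGO17 call against WT was close to the threshold. It was lost without any single WT array, without OE replicate 1 or 2 and without RNAi replicate 2 or 3 (adjusted p up to 0.211), and also in a fit of the RNAi and WT arrays alone and with the unmoderated test. The set of genes was chosen with this value known, so the call is not independent evidence about the set.

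The other 21 probe sets were not called between RNAi and WT, with differences from -0.31 to 0.19 and adjusted p from 0.274 to 0.995. The 1 call, toward a lower level, is 4.55% of the 22, where the background over all 57194 probe sets was 0.479% (0.261% higher, 0.219% lower). AGO17 was also the 1 probe set of the 22 whose groups did not overlap, where 16.3% of all did not, 8.31% with RNAi above and 7.99% with RNAi below. At an unadjusted p under 0.05 there were 2 of the 22 (AGO17 and RDR4), where 12.5% of all probe sets passed. The 95% intervals of all 22 differences, which are not adjusted for the number of genes, lay inside a 2-fold change, and their median half-width was 0.18. The median difference over the 22 was -0.03, against 0.0018 over all tested probe sets.

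Among the Argonautes, AGO1A, AGO1B, AGO1C and AGO1D belong to the group that carries microRNAs and cleaves their targets. None was called in RNAi, where their 5 probe sets differed from WT by -0.15 for AGO1D up to 0.09 for AGO1C. AGO4A and AGO4B carry the small interfering RNAs that direct DNA methylation, and they stood at -0.09 and 0.02. AGO4A was bright on all arrays, at 10.68 to 10.80 in RNAi, 10.91 to 11.07 in OE and 10.79 to 10.88 in WT. AGO2 and AGO3, direct neighbours on chromosome 4 in the reference gene table, stood at -0.03 and 0.07. MEL1, a germline Argonaute needed for rice meiosis, read 5.14, 4.86 and 5.02 in RNAi and 5.12, 4.72 and 5.04 in WT, a difference of 0.04 with overlapping groups. AGO14 stood at -0.12 and PNH1, a PINHEAD relative of leaf and shoot development, at -0.04. AGO18 stood at 0.19 on its brighter probe set and 0.04 on its dimmer one.

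Both Dicer-like genes were also close to WT in the hairpin line. DCL4 (also SHO1), which makes trans-acting small RNAs and processes hairpin transcripts in rice, read 8.84, 8.64 and 8.38 on the RNAi arrays, against 8.73, 8.84 and 8.82 on the WT arrays. The groups overlapped, the RNAi arrays spread more widely, and the difference was -0.18 (95% interval -0.41 to 0.06, limma adjusted p = 0.530). DCL2A, whose relative in Arabidopsis acts in antiviral silencing, differed by 0.0019 and -0.10 on its probe sets, both of the suffix _s_at, which marks probes that can also match other genes. A close copy of this gene could therefore share its signal. The brighter of them read 10.18, 10.18 and 9.91 in RNAi, 10.06, 10.11 and 10.25 in OE and 10.07, 10.09 and 10.11 in WT, with all groups overlapping.

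The RDR genes showed no call in RNAi. SHL2, the rice form of RDR6, which copies transcripts for trans-acting small RNAs and in Arabidopsis is required for silencing by sense transgenes, read 7.68, 7.80 and 8.05 on the RNAi arrays, against 7.89, 7.84 and 7.82 on the WT arrays. RNAi lay on both sides of WT, with a difference of -0.01 (95% interval -0.23 to 0.22). RDR2, which in Arabidopsis supplies the double strands for DNA methylation, differed by -0.07 (adjusted p = 0.710). The probe sets of RDR4 stood at -0.31 (adjusted p = 0.274) and -0.17, both with the suffix _x_at, which marks probes that can match other sequences. The first read 3.67, 3.50 and 3.34 in RNAi, 3.63, 3.77 and 3.58 in OE and 3.80, 3.96 and 3.67 in WT, under the lower quartile of every array (4.33 to 4.41).

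**Figure D1:**
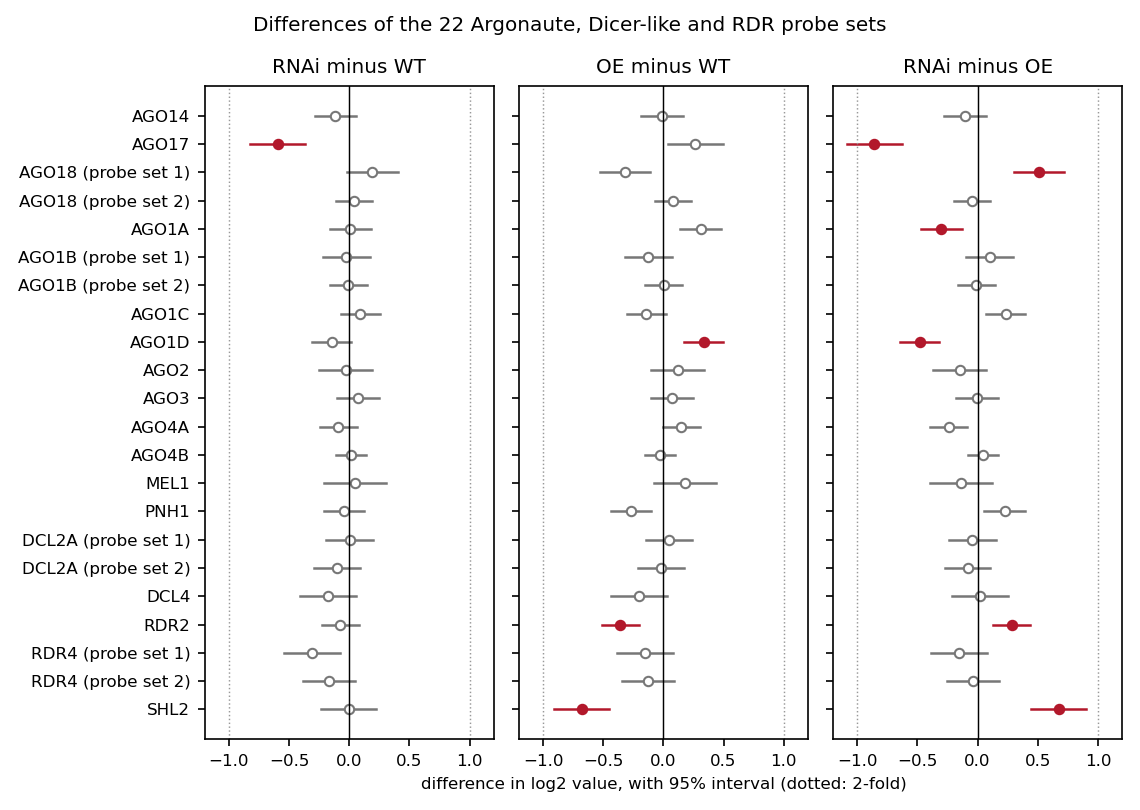
Differences in log2 value (x axis) of the 22 probe sets (y axis) for RNAi minus WT, OE minus WT and RNAi minus OE, with unadjusted 95% intervals from limma. Filled red points are called at an adjusted p under 0.05 and dotted lines mark 2-fold. The left panel holds 1 call (AGO17), the middle panel 3 and the right panel 6.

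On the arrays labelled OE, both called RDR genes were lower than in WT and 1 Argonaute gene was higher. SHL2 (LOC4323938 on chromosome 1) read 7.30, 7.16 and 7.04 on the OE arrays, against 7.89, 7.84 and 7.82 on the WT arrays. All OE arrays lay under all WT arrays, by more than the spread within either group. It fell by 0.68 (SE 0.10, 95% interval -0.91 to -0.45, limma adjusted p = 0.00875), a 1.60-fold lower level. Leaving out any single array kept this call (adjusted p up to 0.0427), while the unmoderated test gave an adjusted p of 0.0566.

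RDR2 (LOC4336092 on chromosome 4) read 7.50, 7.64 and 7.58 in OE, against 7.97, 7.83 and 7.99 in WT. The groups did not overlap, and it fell by 0.36 (SE 0.07, limma adjusted p = 0.0248), a 1.28-fold lower level. This call was lost without OE replicate 1 or 3 or WT replicate 1 or 3 (adjusted p up to 0.117). RDR4 differed by -0.15 and -0.13 on its probe sets (adjusted p = 0.513 and 0.552).

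AGO1D (LOC4342138 on chromosome 6) read 9.52, 9.54 and 9.59 in OE, against 9.22, 9.24 and 9.19 in WT. The OE arrays were tightly grouped above WT, and the gene rose by 0.34 (SE 0.07, limma adjusted p = 0.0396), a 1.26-fold higher level. This call was lost without any single OE or WT array (adjusted p up to 0.156), with each array centred on its median and with the unmoderated test. AGO1A, of the same group, read 11.03, 10.82 and 11.01 in OE, against 10.58, 10.64 and 10.70 in WT. Its difference of 0.31 did not pass (adjusted p = 0.0661), although the groups did not overlap. It was called without OE replicate 2 (adjusted p = 0.0366), among the brighter probe sets alone, with a trend and robust prior and with array weights, over a range of adjusted p from 0.0176 to 0.195 in all alternatives.

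Of the other Argonautes, AGO17 read 6.38, 6.22 and 6.09 in OE, so that its OE arrays lay above WT and its RNAi arrays below. The OE difference of 0.26 did not pass the test (adjusted p = 0.229). AGO18, an antiviral Argonaute of grasses that binds the microRNA controlling AGO1, read 7.53, 7.52 and 7.44 in OE, against 7.61, 7.94 and 7.91 in WT on its brighter probe set. The difference was -0.32 (adjusted p = 0.117), and the call appeared without WT replicate 1 (adjusted p = 0.0387) and with array weights. The dimmer probe set of AGO18 stood at 0.08 (adjusted p = 0.583), the other direction. PNH1 stood at -0.27 (adjusted p = 0.102, called with array weights), AGO4A at 0.15, AGO1C at -0.14, AGO2 at 0.12 and MEL1 at 0.18. AGO1B, AGO3, AGO4B and AGO14 lay between -0.13 and 0.07, and the Dicer-like probe sets between -0.20 and 0.05.

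**Figure D2:**
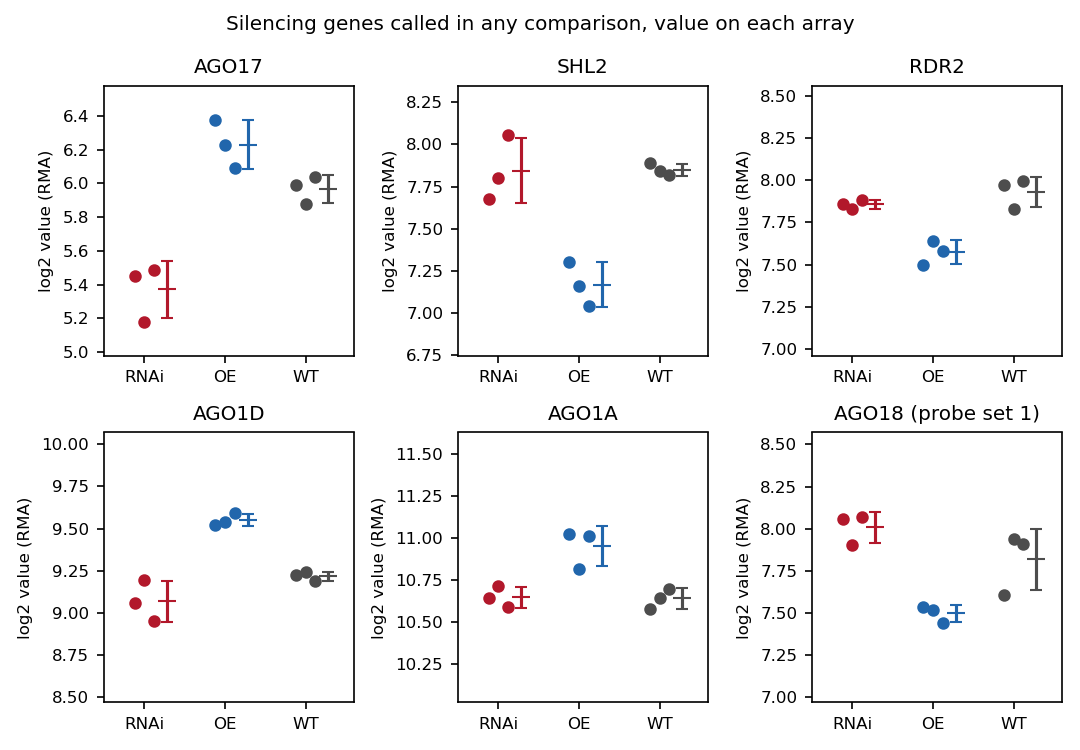
Log2 value (y axis) on each array for the 6 genes called in any comparison, with RNAi, OE and WT along the x axis. Points are arrays, bars give the mean and SD (n = 3), and every panel spans the same range. RNAi is apart from both other groups for AGO17, while for the other 5 genes it overlaps WT and OE stands apart.

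Set against WT, the arrays labelled OE gave 3 calls among the 22 (1 higher, 2 lower), or 13.6%, where the background was 2.94% (1.25% higher, 1.69% lower). Among the 15 members and 28597 probe sets in all whose mean reached the median, tested by themselves, 4 members were called and the background was 7.12%. The groups did not overlap for 11 of the 22, of which 4 lay above WT and 7 below, where 23.3% of all probe sets did not overlap, 11.3% above and 12% below. At an unadjusted p under 0.05 there were 7 of 22, where 16.9% of all probe sets passed. The WT arrays serve both this comparison and that of RNAi. The median difference was -0.02, against 0.017 over all tested probe sets. All 22 unadjusted 95% intervals lay inside a 2-fold change.

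Some markers of other organs differed in the same comparison. In OE against WT, 3 of 19 probe sets of panicle and flower markers were called higher and 1 lower, or 21.1% beside a background of 2.94%. The higher ones were Lhs1 (2.33), a MADS2 gene (LOC4325001, 0.92) and MADS58 (0.78), and the lower one was MADS16 (-0.57). This list averaged 4.80 to 4.84 in OE and 4.59 to 4.63 in WT, with a median difference of 0.09. Of 10 anther and meiosis probe sets, 1 was called higher (DMC1, a meiotic recombinase, at 1.22), or 10% beside 2.94%. The groups did not overlap for 4 of the 10, where 23.3% of all probe sets did not. DMC1 and MSP1 (0.27) lay above WT, and GAMYB (-0.19) and PAIR2 (-0.27) lay below it. The list averaged 6.42 to 6.54 in OE and 6.31 to 6.39 in WT, with a median difference of 0.08. That list includes a probe set reached by the name ZEP1 that belongs to the epoxidase of abscisic acid synthesis (ABA1). Of 10 shoot meristem probe sets none was called by limma or at an unadjusted p under 0.05, with averages of 5.23 to 5.28 in OE and 5.21 to 5.22 in WT. In RNAi against WT no probe set of these 3 lists was called by limma. At an unadjusted p under 0.05 there were 2, 3 and 1 among the anther, panicle and meristem lists, where 12.5% of all probe sets passed. In RNAi against OE, 1 panicle probe set was called higher and 3 lower, and DMC1 lower, where 6.16% of all probe sets were called. Root markers, 6 probe sets of 3 genes, averaged 4.36 to 4.47 in RNAi, 4.44 to 4.51 in OE and 4.34 to 4.38 in WT. In OE against WT limma called 0 of the 6 (1 at an unadjusted p under 0.05), although 3 lay wholly above WT, where 11.3% of all probe sets did. In RNAi against OE, 1 of 4 probe sets of the phosphate transporter gene PT11 was called lower (-0.34, adjusted p = 0.0496). That probe set averaged 3.54 in RNAi and 3.89 in OE, under the lower quartile of every array (4.33 to 4.41). In RNAi against WT 0 of the 6 root probe sets were called or passed an unadjusted p under 0.05. The part of these markers in the silencing gene values was not tested.

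Set directly against each other, the hairpin line and the cDNA line gave more calls among these genes than either gave against WT. Calls over all probe sets were also more frequent between the lines, at 6.16%, beside 0.479% for RNAi and 2.94% for OE against WT. AGO17 was the most different, with RNAi at 5.45, 5.18 and 5.49 and OE at 6.38, 6.22 and 6.09. It was lower in RNAi by a difference of -0.86 (SE 0.10, limma adjusted p = 0.00153), or 1.81-fold, and this call held in every alternative that tested it (adjusted p up to 0.0218). SHL2 was higher in RNAi by 0.68 (adjusted p = 0.00522), 1.60-fold, and was also called in every alternative (up to 0.0410).

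AGO1D was lower in RNAi, at 9.06, 9.20 and 8.95, against 9.52, 9.54 and 9.59 in OE. The difference was -0.48 (SE 0.07, adjusted p = 0.00485), and its call held in every alternative (up to 0.0274). AGO18 was higher in RNAi on its brighter probe set, at 8.05, 7.90 and 8.07, against 7.53, 7.52 and 7.44 in OE. The difference was 0.51 (SE 0.09, adjusted p = 0.0128), lost only with the unmoderated test (adjusted p = 0.0587), while its dimmer probe set, at 5.84 to 6.02 on all arrays of the 2 lines, differed by -0.04.

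The remaining calls were close to the threshold. AGO1A was lower in RNAi by a difference of -0.30 (adjusted p = 0.0468), lost without any single array other than OE replicate 2 (up to 0.151), with each array centred on its median, with these 2 groups alone and with the unmoderated test. RDR2 was higher in RNAi by 0.28 (adjusted p = 0.0407), lost without any RNAi array, OE replicate 1 or 3 or WT replicate 1 or 3 (up to 0.137), with these 2 groups alone and with the unmoderated test. Between the lines AGO4A stood at -0.24 (adjusted p = 0.0693, called among the brighter probe sets alone, with a trend and robust prior and with array weights), AGO1C at 0.23 (adjusted p = 0.0920) and PNH1 at 0.23 (adjusted p = 0.118), all with groups that did not overlap. The 3 Dicer-like probe sets differed by -0.08 to 0.02 (adjusted p from 0.618 to 0.921).

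These 6 calls, 3 higher and 3 lower, make 27.3% of the 22 probe sets, where the background was 6.16% (3.02% higher, 3.14% lower in RNAi). Among probe sets whose mean reached the median, 6 of 15 members were called and the background was 13.1%. The groups did not overlap for 9 of 22, 5 with RNAi above and 4 below, where 23.2% of all did not, 11.8% above and 11.4% below. At an unadjusted p under 0.05 there were 9 of 22, where 21.8% of all passed. RNAi against OE shares its arrays with the comparisons above, so the calls are the same measurements seen from another side.

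**Figure D3:**
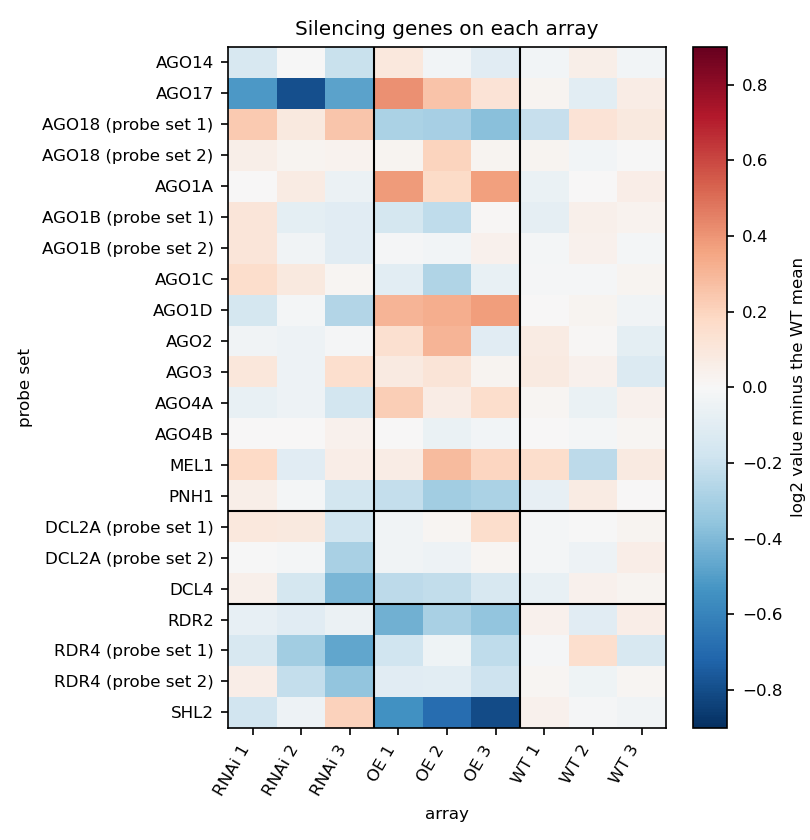
Log2 value of each of the 22 probe sets (rows) on each array (columns) minus the mean of the WT arrays, with red above and blue below it. AGO17 is blue on all RNAi arrays and red on all OE arrays, and SHL2, RDR2 and PNH1 are blue on all OE arrays. The rows of AGO1A and AGO1D are red on all OE arrays.

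Partners of the machinery were read from a list of 22 further genes (35 probe sets). They comprised the double-stranded RNA-binding (DRB) proteins that assist Dicer-like enzymes, SGS3 that works with RDR6, the cap-binding proteins CBP20 and ABH1 and HSP90-type chaperones (HSP81) that help load Argonautes. DNA methyltransferases (DRM, CMT3, MET1), the demethylase gene DNG701 and histone demethylases (JMJ) completed it. In RNAi against WT, limma called 0 of 35, where 0.479% of all probe sets were called. At an unadjusted p under 0.05 there were 2 of 35, where 12.5% of all passed, and the unmoderated test called 0. The groups did not overlap for 6, of which 2 lay above WT and 4 below, beside 8.31% and 7.99% of all probe sets. The differences ran from -0.33 for DNG701 (adjusted p = 0.148) to 0.19 for a DRB1 gene (LOC4351288, adjusted p = 0.351).

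In OE against WT, 3 of 35 were called, 1 higher and 2 lower, or 8.57% beside a background of 2.94%. More of the 35 lay below WT than above it, 24 against 11, and the median difference was -0.06. The groups did not overlap for 17, of which 14 lay below WT and 3 above, beside 12% and 11.3% of all probe sets. At an unadjusted p under 0.05 there were 12 of 35, beside 16.9% of all. CMT3, which maintains DNA methylation outside CG sites, read 5.87, 5.82 and 5.91 in OE, against 5.57, 5.57 and 5.44 in WT, and rose by 0.34 (limma adjusted p = 0.0226). This call was lost without OE replicate 1 or 3 or any WT array (up to 0.108). HSP81-1 fell by 0.44 (adjusted p = 0.00953) on 1 probe set, at 10.33, 10.17 and 10.22 in OE, against 10.65, 10.70 and 10.69 in WT, while its brighter probe set stood at -0.23 (adjusted p = 0.142). The HSP81-1 call was lost without WT replicate 2 or 3 (up to 0.0518). A DRB1 gene (LOC4324620) fell by 0.28 (adjusted p = 0.0361), and its other probe set stood at -0.10. The DRB1 call was lost without RNAi replicate 2 or any OE or WT array (up to 0.144) and with these 2 groups alone. SGS3 stood at -0.03 and 0.08 on its probe sets, and the largest uncalled differences were -0.44 for the other DRB1 gene (LOC4351288, adjusted p = 0.0978) and 0.33 for a MET1 gene (LOC4342575, adjusted p = 0.227).

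Between the lines, 3 of 35 partner probe sets were called, 8.57% beside a background of 6.16%. The groups did not overlap for 12, of which 9 had RNAi above and 3 below, beside 11.8% and 11.4% of all probe sets. At an unadjusted p under 0.05 there were 8 of 35, beside 21.8% of all. CMT3 was lower in RNAi, at 5.51, 5.46 and 5.43, against 5.87, 5.82 and 5.91 in OE, a difference of -0.40 (adjusted p = 0.00713). HSP81-1 was higher in RNAi by 0.50 (adjusted p = 0.00275) and DRB1 (LOC4351288) by 0.43 (adjusted p = 0.0100), on a probe set of the suffix _x_at. The other probe sets of these genes were not called, at 0.22 for HSP81-1 (adjusted p = 0.107) and 0.27 for DRB1 (adjusted p = 0.243). Leaving out any single array kept these 3 calls (adjusted p up to 0.0470). MET1 (LOC4342575) stood at -0.50 (adjusted p = 0.05002, just above the threshold).

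**Figure D4:**
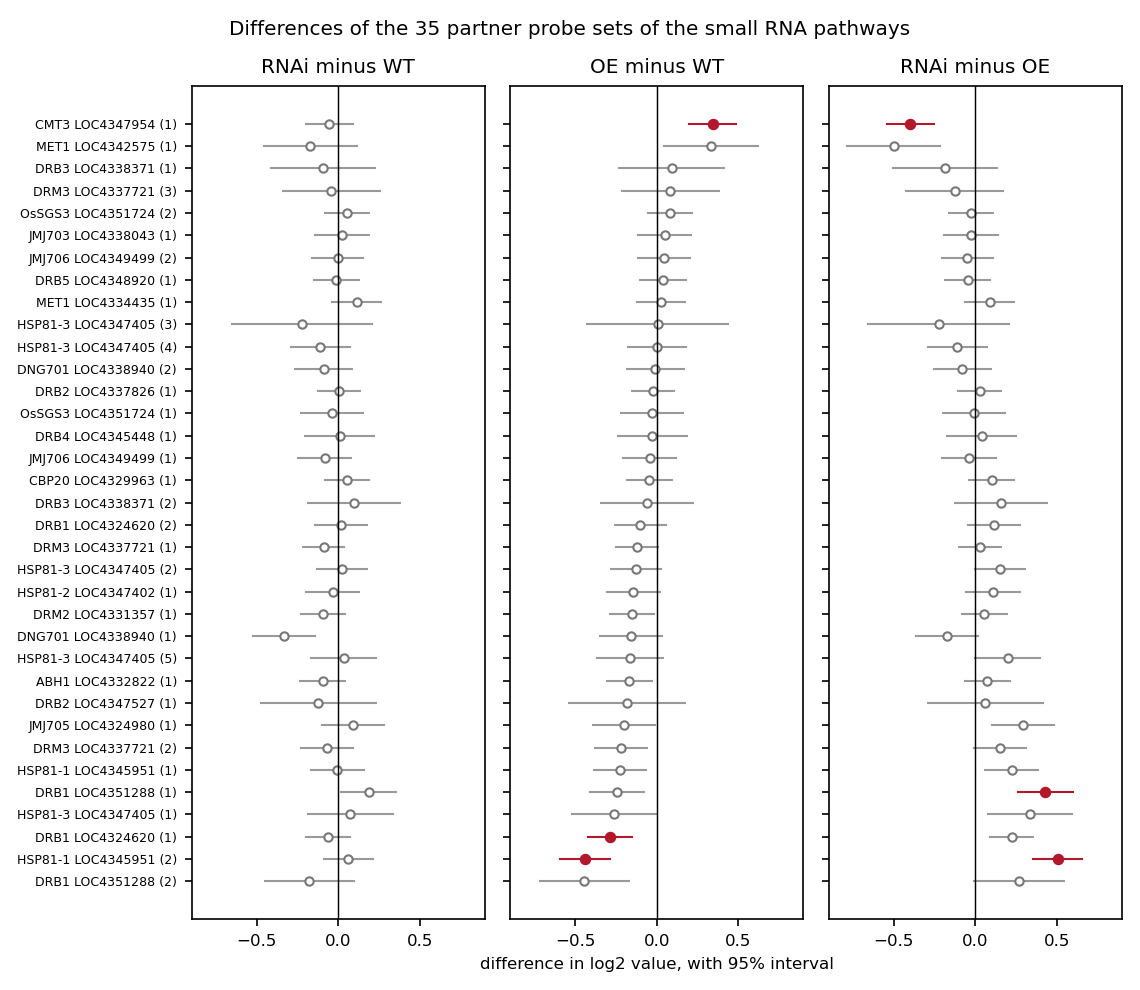
Differences in log2 value (x axis) of the 35 partner probe sets (y axis, gene name and identifier with the probe set's number), ordered by OE minus WT, with unadjusted 95% intervals. Filled red points are called at an adjusted p under 0.05. The RNAi minus WT panel holds 0 calls and each of the other panels 3.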

How the data were processed

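The authors deposited 1 table of log2 values, 57381 probe sets on 9 Affymetrix arrays, made with RMA (background correction, quantile normalization and probe summary; version not given in the sources used here). Quantile normalization gives every array the same overall distribution, which would shrink any change common to most genes. The number of arrays limits the precision. Before testing, the 187 Affymetrix control and reporter probe sets were dropped. Probe sets were named by Entrez identifier through the platform annotation and a reference gene table (ASM3414082v1); of 19 genes matched by the rule, 18 had a probe set. Groups came from the labels. All 9 arrays entered 1 linear model of group means with limma 3.58.1 in R 4.3.3 (6 residual and 3.78 prior degrees of freedom), two-sided, with Benjamini-Hochberg adjustment over 57194 probe sets and calls at an adjusted p under 0.05. The fit was tested on simulated data. No low-value filter was used. Named were all members, with array values for those called, those of largest difference and 1 per clade, and the partners called or of largest difference. Members and lists were chosen with earlier results of these data known. Alternatives changed the replicate block, scaling, filter, arrays in the fit, moderation, weights, control probe sets, ambiguous probe sets, probe sets per gene and single arrays. No sequence of a member or probe was used here.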

Additional observations from a re-analysis of the deposited data

Results flagged for a closer look

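Outside the tested probe sets, the array carries 64 reporter probe sets for foreign sequences, which are not annotated here. The one that differed most read 10.40, 11.77 and 10.06 on the RNAi arrays, 13.23, 12.94 and 13.48 on the OE arrays, and 4.15, 4.15 and 4.22 on the WT arrays, so the mean in RNAi was 6.57 above WT. It was singled out because it was far above the WT level on all 6 arrays of the transformed lines.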

How the results depend on the processing

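No difference of a member, of OsHMGB707 or of a called partner that exceeded its SE changed direction in any alternative. The limits lie in the counts of calls, since 3 arrays per group leave many differences near the threshold. Between RNAi and WT, the count of members called, 1 in the main analysis, was 0 with the 2 groups alone, with the unmoderated test and with a filter that keeps the brighter 28597 probe sets and drops AGO17. Between OE and WT it was 3 and became 1 with the unmoderated test and 6 with array weights. Between RNAi and OE it was 6 and became 3 with the unmoderated test. Leaving out single arrays gave 0 to 1, 1 to 3 and 4 to 6 members called in these 3 comparisons. Partner calls in OE against WT (3) became 6 with array weights and 0 to 3 without single arrays, and those in RNAi against OE (3) became 5 with array weights or with a trend and robust prior and 3 to 5 without single arrays. The median difference over members between RNAi and OE, -0.04, became 0.024 with that filter and -0.089 to 0.023 without single arrays, and that between RNAi and WT, -0.03, was -0.070 to -0.0025 without single arrays. Deviations from the group means correlated no more between same-numbered replicates (r from -0.33 to 0.12 over their 9 pairs) than between other pairs (-0.21 to 0.28). Deviations within 3 arrays constrain each other, so these values cannot decide whether the numbers pair the samples. The labels give only a replicate number. With the replicate number as a block, 0, 1 and 4 members and 0, 1 and 4 partners were called in RNAi against WT, OE against WT and RNAi against OE. The members whose calls the block ended were AGO17 in the first, AGO1D and RDR2 in the second and AGO1A and RDR2 in the third.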

Other observations

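The values of the Dicer-like genes and of RDR4 were lowest on the same array. All 5 of their probe sets had their lowest value of the 9 arrays on RNAi replicate 3, a pattern noticed after the values were seen and not tested. DCL4 read 8.38 there, against 8.84 and 8.64 on the other RNAi arrays. DCL2A read 9.91, against 10.18 and 10.18, on its brighter probe set and 6.12, against 6.41 and 6.39, on its dimmer one. RDR4 read 3.34 and 4.80, against 3.67 and 3.50 and against 5.22 and 4.95. In all, 9 of the 22 member probe sets had their lowest value on RNAi replicate 3, and 4 others, among them SHL2, had their highest value there.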
